A study of Mus musculus with 11 samples.

Results

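The PPAR-gamma and LXR lipid handling genes described here are 10 genes of the mouse, Pparg, Nr1h3, Abcg1, Abca1, Cd36, Fabp4, Fabp5, Plin2, Cidec and Angptl4. They were picked by symbol as a known pathway, with earlier results of these data known, from the 19505 genes with a symbol on an Affymetrix expression array. Each had 1 transcript cluster, the probe set that summarises a gene on this array. All 10 lay above array background in every group, and all 10 were among the 12143 genes that passed a filter on dim probe sets and were tested.

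RNA came from alveolar macrophages, which patrol the lumen of the lung's alveoli, of 11 C57BL/6J mice, all female and 6 weeks old when bought, in a model of macrophage activation syndrome (MAS), a state of excessive immune activation. The resolution group (n = 4) had received 5 injections of CpG 1826, an oligonucleotide ligand of the DNA sensor Tlr9, over 10 days, with bronchoalveolar lavage on day 30. The acute group (n = 3) had received the same CpG course with lavage on day 10, and the control group (n = 4) had received PBS on that schedule with lavage on day 10. No transgene or mutant allele is given in the labels for any group. The cells were purified by adherence, which selects no cell type by a marker. PBS mice lavaged on day 30 were not analysed here, so in resolution versus control the CpG course and the day of lavage cannot be told apart. Each comparison shares a group with the other comparisons, so none of them repeats another.

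PPAR-gamma, the product of Pparg, and LXR-alpha, the product of Nr1h3, are nuclear receptors that bind DNA as partners of RXR and switch on genes when fatty acid derivatives (PPAR-gamma) or oxysterols (LXR) bind them. In alveolar macrophages PPAR-gamma is known as a factor of their development, and the cells take up and break down surfactant lipid. Textbook targets of LXR in macrophages are the sterol exporters Abca1 and Abcg1. Those of PPAR-gamma include Cd36, a fatty acid and lipoprotein receptor, the fatty acid binding proteins, lipid droplet proteins and Angptl4, a secreted inhibitor of lipoprotein lipase.

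Both receptors bind DNA at repeats of the core AGGTCA, so this core shows what a receptor site looks like beside the start of these genes. Promoter windows of RefSeq on GRCm38.p6, from 250 bases before to 50 bases after a gene's start, matched 6 of the 10 genes with 10 windows. Abcg1, Angptl4, Fabp4 and Fabp5 were not matched. An exact AGGTCA on either strand lay in 4 of these 10 windows, of Pparg, Cd36 and Plin2, and in 16.3% of all 32851 windows. A direct repeat of the core with a spacer of 1 base (AGGTCANAGGTCA, the form linked to PPAR-RXR) lay in 0.0396% of all windows, and a repeat with a spacer of 4 bases (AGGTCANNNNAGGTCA, the form linked to LXR-RXR) in 0.0152%. Neither repeat lay in any of the 10 windows matched, which says only that these letters are not there. A looser pattern with the LXR spacing, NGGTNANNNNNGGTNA, was chosen after the Abca1 sequence had been seen. It lay in 0.718% of all windows and, of the 10 windows matched, in 1 of Abca1. The stretches that hold a match follow as 120 bases each, 5′ to 3′ on the strand of the gene, with the match in capitals. Such a match is a description and no evidence of binding.
Abca1 promoter, chr4:53159896-53160015, minus strand, with the looser pattern on the opposite strand 67 to 52 bases before the start: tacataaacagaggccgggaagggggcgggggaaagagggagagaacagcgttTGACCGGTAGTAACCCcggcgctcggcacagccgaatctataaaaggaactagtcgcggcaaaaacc
Pparg, first of its starts shown, chr6:115361024-115361143, plus strand, with AGGTCA 28 to 23 bases before the start: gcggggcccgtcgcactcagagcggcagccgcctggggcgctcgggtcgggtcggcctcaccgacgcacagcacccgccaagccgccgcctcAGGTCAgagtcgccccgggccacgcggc
Pparg, the other start, chr6:115362229-115362348, plus strand, with AGGTCA 9 to 4 bases before the start: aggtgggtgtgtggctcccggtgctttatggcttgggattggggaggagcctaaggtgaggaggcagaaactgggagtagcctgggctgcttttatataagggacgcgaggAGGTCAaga
Cd36 promoter, chr5:17836027-17836146, minus strand, with AGGTCA on the opposite strand 228 to 223 bases before the start: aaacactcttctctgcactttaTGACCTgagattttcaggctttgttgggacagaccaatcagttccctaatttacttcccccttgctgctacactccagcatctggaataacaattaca
Plin2 promoter, chr4:86670190-86670309, minus strand, with AGGTCA on the opposite strand 218 to 213 bases before the start: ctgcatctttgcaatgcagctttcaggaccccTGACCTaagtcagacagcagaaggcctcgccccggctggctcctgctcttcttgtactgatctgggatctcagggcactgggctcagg

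Values are log2(intensity + 1), the deposited intensity on a log scale, in which a difference of 1 is a doubling. A gene's level is set only against the same gene in other arrays, since probe sets differ in brightness. The arrays had median intensities between 51.4 and 57.0, between 8731 and 8952 genes above background, and correlations of 0.9884 to 0.9949 within groups and 0.9747 to 0.9929 between groups. The first principal component (43.86% of the variance) set the 4 resolution arrays apart from the other 7. Control replicate 4 stood apart on the third (10.24%). The defining markers of the labelled cell type were present in every group: 19 alveolar macrophage markers had mean levels of 14.78 to 14.86 in resolution, 14.65 to 14.73 in acute and 14.65 to 14.82 in control arrays, with none below background. Single markers moved both ways, with 4 of the 19 higher and 3 lower in resolution versus control, where 18.6% of all genes were called. Fcgr1, an antibody receptor, was 3.14-fold higher (adjusted p = 0.000626), the protease Ctsk was 2.21-fold lower (adjusted p = 5.25e-05) and the zinc transporter Slc39a2 was 1.80-fold lower (adjusted p = 0.00219). Siglecf, the lectin receptor that marks these cells, differed by 0.23 in resolution versus control (adjusted p = 0.29). Marco, another marker of the list, differed by -0.35 there and did not pass the test (-0.53 to -0.15 with 1 array left out). Because RNA was taken from the adherent cells in bulk, fewer cells of a type and less RNA per cell cannot be told apart in any value below. The p-values set a difference between groups against the spread between these samples.

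In resolution cells the lipid genes moved apart from each other. Pparg, Abcg1, Cidec and Angptl4 rose, and Nr1h3, Cd36, Fabp4 and Fabp5 fell, by 1.68-fold to 4.17-fold, against control. Plin2 and Abca1 did not pass the test. Of all genes tested in this comparison 18.6% were called, 9.6% higher and 9% lower, at an adjusted p under 0.05. The median absolute difference was 1.04 over the 10 genes and 0.22 over all genes, while the median signed difference was 0.08 and 0.0035, since the members moved both ways; as the genes were picked with earlier results known, these medians are a description. Against acute cells 4 members rose and 3 fell, where 14.5% of all genes were called (7.77% higher, 6.69% lower), and the median absolute difference was 0.96, against 0.22 over all genes. Quantile normalization gave 685 genes higher and 1151 lower in resolution versus acute, against 943 higher and 812 lower on the deposited scale, and the 7 member calls held. In acute versus control 1 member fell (Cd36) and 0 rose, with 2 members under an unadjusted p of 0.05. Of all genes 0.239% were called there (0.189% higher, 0.0494% lower), and 9.05% had an unadjusted p under 0.05. The median absolute difference of the members in acute versus control, 0.13, was close to that of all genes, 0.14.

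**Figure D1:**
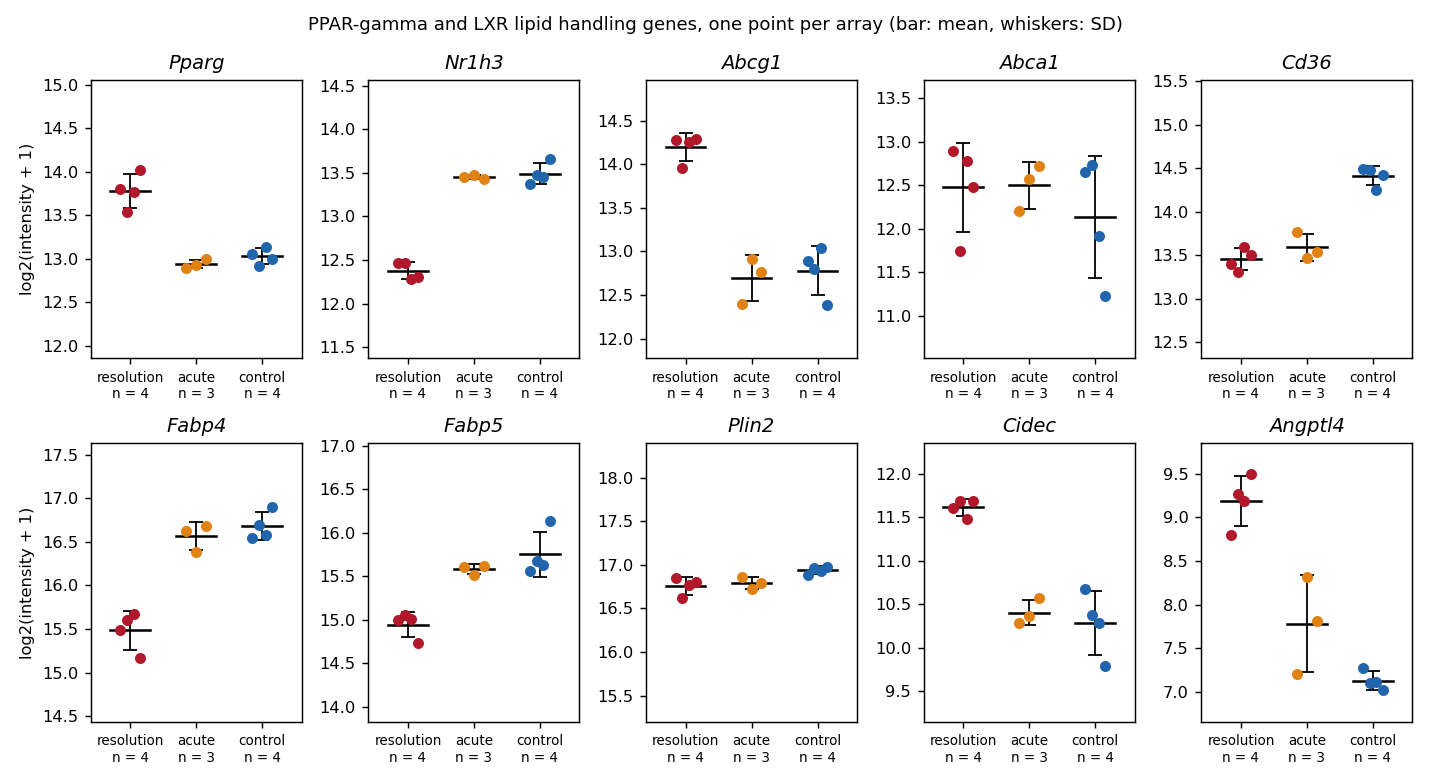
Level of each of the 10 lipid genes as log2(intensity + 1), 1 point per array, with resolution (n = 4), acute (n = 3) and control (n = 4) side by side; bars are group means and whiskers SD, and every panel spans the same number of log2 units. Angptl4, Cidec, Abcg1 and Pparg are high in resolution arrays, Nr1h3, Fabp4 and Fabp5 are low there, and Cd36 is low in resolution and acute arrays.

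The receptors moved in opposite directions in resolution. Pparg stood at 13.80, 13.54, 13.76 and 14.02 in resolution arrays, 12.90, 12.93 and 12.996 in acute arrays and 13.06, 12.92, 13.14 and 12.996 in control arrays. Every resolution array was above every acute and control array, and the acute and control arrays overlapped. Pparg was 1.68-fold higher in resolution than in control (log2 difference 0.75 ± 0.12 SE, adjusted p = 0.000809) and 1.79-fold higher than in acute (0.84 ± 0.13, adjusted p = 0.000909). The acute group differed from control by -0.09 ± 0.13 (adjusted p = 0.881).

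Nr1h3, which encodes LXR-alpha, had levels of 12.47, 12.46, 12.28 and 12.31 in resolution, 13.46, 13.47 and 13.43 in acute and 13.37, 13.48, 13.46 and 13.66 in control arrays. All 4 resolution arrays lay below the other 7, whose acute and control values overlapped. The gene was 2.16-fold lower in resolution than in control (-1.11 ± 0.11, adjusted p = 1.93e-05) and 2.11-fold lower than in acute (-1.08 ± 0.11, adjusted p = 7.06e-05). The acute group differed from control by -0.04 ± 0.11 (adjusted p = 0.952). Rxra, the gene of an RXR partner, differed by -0.15 in resolution versus control (adjusted p = 0.53).

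Of the sterol exporters Abcg1 rose in resolution, and Abca1 did not pass the test. Abcg1, a transporter that passes cholesterol to lipoprotein particles, had levels of 14.28, 13.96, 14.26 and 14.29 in resolution, 12.40, 12.91 and 12.77 in acute and 12.89, 12.80, 13.04 and 12.39 in control arrays. The resolution arrays stood above all others, with replicate 2 the lowest of the 4, and acute and control arrays overlapped. The difference was 2.68-fold in resolution versus control (1.42 ± 0.16, adjusted p = 6.9e-05) and 2.84-fold in resolution versus acute (1.51 ± 0.17, adjusted p = 0.000135). The acute difference from control was -0.09 ± 0.17 (adjusted p = 0.918).

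Abca1, which loads cholesterol onto lipid-poor apolipoprotein and whose promoter holds the looser LXR-spaced pattern shown above, varied more within groups than between them. Its levels were 12.89, 11.75, 12.78 and 12.48 in resolution, 12.20, 12.57 and 12.72 in acute and 12.66, 12.73, 11.92 and 11.23 in control arrays. The groups overlapped in all 3 comparisons. Resolution differed from control by 0.34 ± 0.32 (95% confidence interval -0.36 to 1.04, adjusted p = 0.522) and from acute by -0.02 ± 0.35 (-0.78 to 0.73, adjusted p = 0.977). Intervals this wide hold rises and falls of over 1.5-fold against acute, so a change of that size in Abca1 was not detectable given its spread between arrays.

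Cd36 was the member that already differed on day 10. Levels of this scavenger receptor for fatty acids and oxidised lipoprotein were 13.40, 13.31, 13.59 and 13.50 in resolution, 13.76, 13.47 and 13.54 in acute and 14.49, 14.48, 14.25 and 14.42 in control arrays. The control arrays lay above all 7 arrays of CpG mice, and resolution and acute arrays overlapped. Cd36 was 1.94-fold lower in resolution than in control (-0.96 ± 0.11, adjusted p = 0.000102) and 1.77-fold lower in acute than in control (-0.82 ± 0.12, adjusted p = 0.0165). Resolution and acute differed by -0.14 ± 0.12 (95% confidence interval -0.41 to 0.13, adjusted p = 0.511). The acute call was not firm: adjusted p was 0.072 without control replicate 1, 0.0561 without control replicate 2, 0.104 without acute replicate 2 and 0.0837 without acute replicate 3, with differences between -0.91 and -0.76 over all arrays left out in turn. It was also 0.0689 in a fit on these 2 groups alone and 0.0852 with the replicate number as a block.

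Fabp4 and Fabp5, of the fatty acid binding proteins, fell in resolution, while Fabp1, given with the related genes below, rose. Fabp4, a carrier of fatty acids in macrophages and fat cells, had levels of 15.48, 15.61, 15.68 and 15.17 in resolution, 16.63, 16.39 and 16.69 in acute and 16.55, 16.70, 16.58 and 16.90 in control arrays. Resolution arrays were all below the others, and acute overlapped control. Fabp4 was 2.29-fold lower in resolution than in control (-1.20 ± 0.14, adjusted p = 7.79e-05) and 2.12-fold lower than in acute (-1.08 ± 0.15, adjusted p = 0.000452). The acute group differed by -0.11 ± 0.15 from control (adjusted p = 0.866).

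Fabp5, a related carrier known from skin and macrophages, had levels of 15.001, 15.05, 15.004 and 14.73 in resolution, 15.60, 15.51 and 15.62 in acute and 15.56, 15.68, 15.63 and 16.13 in control arrays. Its resolution arrays lay below all others as well, with resolution replicate 4 the lowest array of all 11 and control replicate 4 the highest. The fall was 1.75-fold against control (-0.80 ± 0.14, adjusted p = 0.00138) and 1.55-fold against acute (-0.63 ± 0.15, adjusted p = 0.013). Fabp5 differed by -0.17 ± 0.15 between acute and control (adjusted p = 0.768).

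Lipid droplet proteins split into a member that rose and one that did not pass the test. Cidec, which helps droplets fuse and grow, had levels of 11.61, 11.69, 11.48 and 11.69 in resolution, 10.29, 10.36 and 10.57 in acute and 10.68, 10.38, 10.29 and 9.79 in control arrays. All resolution arrays were higher than the rest, and the acute arrays lay within the control range. Cidec was 2.52-fold higher in resolution than in control (1.33 ± 0.16, adjusted p = 0.000131) and 2.31-fold higher than in acute (1.21 ± 0.18, adjusted p = 0.000726), and differed by 0.12 ± 0.18 in acute versus control (adjusted p = 0.883).

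Plin2, the main droplet coat protein of macrophages, had levels of 16.85, 16.62, 16.77 and 16.80 in resolution, 16.87, 16.72 and 16.79 in acute and 16.88, 16.96, 16.93 and 16.98 in control arrays. The control arrays were above all arrays of CpG mice by a small margin, and resolution and acute arrays overlapped. The differences were -0.18 ± 0.10 in resolution versus control (95% confidence interval -0.40 to 0.03, adjusted p = 0.236) and -0.15 ± 0.11 in acute versus control (adjusted p = 0.717), and neither passed the test. Arrays that do not overlap were found for 22.7% of all genes in resolution versus control (9 of the 10 members, all but Abca1), for 26.3% in resolution versus acute (7 members, all but Abca1, Cd36 and Plin2) and for 10.1% in acute versus control (Cd36 and Plin2). Of the 25 alternatives run, an intensity trend in the variance prior was the one under which Plin2 was called in resolution versus control (adjusted p = 0.029).

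Angptl4 had the largest difference of the 10 in resolution versus control. Its levels were 8.80, 9.27, 9.19 and 9.49 in resolution, 7.21, 8.32 and 7.81 in acute and 7.28, 7.10, 7.11 and 7.01 in control arrays. The resolution arrays stood above all others, acute replicates 2 and 3 lay between the groups, and acute replicate 1 lay within the control range. Angptl4 was 4.17-fold higher in resolution than in control (2.06 ± 0.21, adjusted p = 3.37e-05), place 73 of 12143 genes by the size of the difference, and 2.65-fold higher than in acute (1.41 ± 0.23, adjusted p = 0.00137). In acute versus control the difference of 0.65 ± 0.23 had an unadjusted p of 0.0137 and an adjusted p of 0.397. Its enzyme target Lpl differed by -0.20 in resolution versus control (adjusted p = 0.506).

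**Figure D2:**
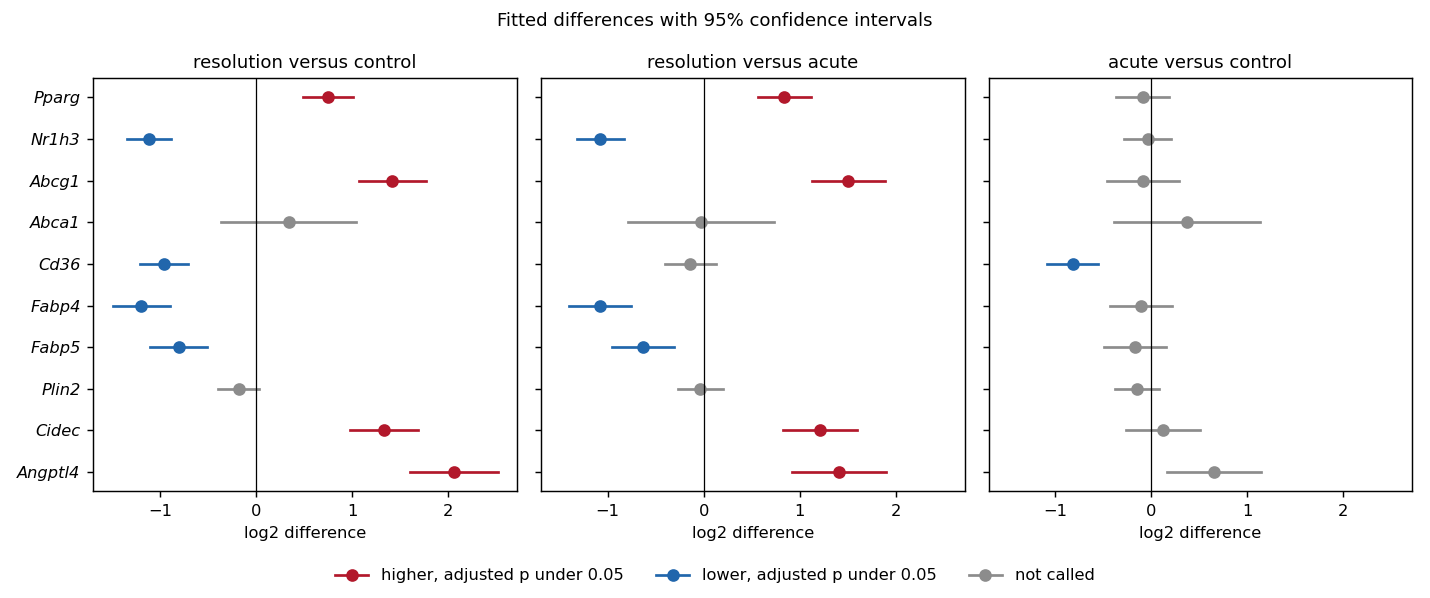
Fitted log2 differences of the 10 lipid genes with 95% confidence intervals in resolution versus control, resolution versus acute and acute versus control; red marks genes called higher, blue genes called lower and grey genes not called at an adjusted p under 0.05. The intervals of 8 genes in resolution versus control and 7 in resolution versus acute lie on 1 side of 0, and in acute versus control Cd36 (-0.82) is the gene called.

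The 8 calls in resolution versus control and the 7 in resolution versus acute held when any 1 array was left out, and the 8 held without control replicates 3 and 4 together. Lung epithelial markers moved with the groups and are given below, and so did immediate early genes. Of 14 tested genes that respond within minutes to cell handling and other stimuli, 7 rose and 2 fell in resolution versus control. The largest rises were of Fosb (19.4-fold), Nr4a1 (4.26-fold), Btg2 (2.84-fold) and Egr1 (2.76-fold). Jun went the other way, at 9.87 to 10.37 in resolution and 10.62 to 11.07 in control arrays. So did Atf3, at 10.86 to 11.48 and 11.65 to 12.09, while the arrays of Fos overlapped between these groups. Against acute 7 of the 14 genes rose and 1 fell. In acute versus control limma called 0 of them, with 1 under an unadjusted p of 0.05. Of all genes 18.6%, 14.5% and 0.239% were called in these 3 comparisons. The part of handling in the changes of the 10 genes was not tested.

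Lists of related genes were set beside the members, with the members left out of them. Their 115 distinct tested genes were called in 32.2% of cases in resolution versus control (21 higher, 16 lower), 26.1% in resolution versus acute (19 higher, 11 lower) and 0.87% in acute versus control (1 lower). Over all genes tested the shares were 18.6%, 14.5% and 0.239%. The counts of each list and of the markers below stand beside these shares, and many of the lists are small. The median difference over these 115 genes was 0.02 in resolution versus control. The lists were chosen with earlier results of these data known, so the counts describe them and do not single them out.

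Among partners and coregulators of the nuclear receptors 3 rose and 1 fell of 13 tested in resolution versus control, with a list median of -0.05. Nrip1, a corepressor of nuclear receptors known from fat tissue, was 3.39-fold higher (adjusted p = 0.000165). The coactivator Ncoa1 was 1.64-fold higher (adjusted p = 0.00496), and the acetyltransferase Crebbp was 1.47-fold lower (adjusted p = 0.0095). Ncoa2 was 1.51-fold higher (adjusted p = 0.0357), a call lost without any 1 of control replicates 3 and 4 and resolution replicates 1 to 4 (adjusted p 0.0507 to 0.0968). Other targets of LXR pointed upward where they were called: 3 of 11 rose and 0 fell, with a median of 0.36. Apoe, the lipoprotein that macrophages secrete with cholesterol, was 1.63-fold higher (adjusted p = 0.0159, and 0.0505 without resolution replicate 3). Mertk, a receptor for dead cells, was 1.42-fold higher (adjusted p = 0.0293), and Lpcat3, which remodels phospholipids, was 1.30-fold higher (adjusted p = 0.0275). Both calls were lost without any 1 of control replicates 3 and 4 and resolution replicates 1, 3 and 4 (adjusted p 0.0527 to 0.0778). In acute versus control limma called 0 genes of either list, with 1 partner and 0 LXR targets under an unadjusted p of 0.05. Nr1h2 and Srebf1 were not analysed here.

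Other targets of PPARs did not share a direction. Of 16 tested, 3 rose and 2 fell in resolution versus control, with a median of -0.0037 beside 0.0035 over all genes. Cpt1a, which admits fatty acids to mitochondria, was 2.13-fold higher (adjusted p = 0.000119), and the oxidation enzyme Acaa2 was 1.33-fold higher (adjusted p = 0.0187, and 0.0562 without control replicate 1). Hilpda, a droplet protein that inhibits the lipase Pnpla2, was 1.60-fold lower (adjusted p = 0.0138), and Creg1, a glycoprotein of the lysosome, was 1.54-fold lower (adjusted p = 0.00118). Fatty acid oxidation, a list that shares genes with the PPAR targets, had 5 of 20 genes higher, 0 lower and a median of 0.20. Its calls included Hadh (1.69-fold, adjusted p = 0.00066) and Echs1 (1.46-fold, adjusted p = 0.0161), both enzymes of beta oxidation.

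Genes of droplet coat and lipolysis moved both ways, with 4 of 15 higher and 4 lower in resolution versus control and a median of -0.06. Dgat2, the enzyme of the last step of triglyceride synthesis, was 1.80-fold higher (adjusted p = 0.00558), and Mgll, which splits monoglycerides, was 1.79-fold higher (adjusted p = 0.00206). Lipa, the acid lipase of lysosomes, was 1.80-fold lower (adjusted p = 0.00037). Uptake and binding genes other than Cd36, Fabp4 and Fabp5 had 1 of 10 higher and 1 lower. Fabp1, the binding protein best known from liver, was 1.46-fold higher (adjusted p = 0.00676) while Fabp4 and Fabp5 fell, and the acyl-CoA synthetase Acsl4 was 1.35-fold lower (adjusted p = 0.0146). Fatty acid synthesis had 0 higher and 2 lower of 11 genes. Me1, the cytosolic malic enzyme that supplies NADPH, was at least 1.75-fold lower (adjusted p = 2.57e-05), a bound because its level in resolution was below background. Elovl1, an elongase, was 1.41-fold lower (adjusted p = 0.0108).

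Scavenger and lipoprotein receptors other than Cd36 had 2 of 11 higher and 2 lower. Colec12, a scavenger receptor of the collectin family, was 3.22-fold lower (adjusted p = 9.16e-05), and Cxcl16, a membrane chemokine that also binds oxidised lipoprotein, was 3.19-fold lower (adjusted p = 9.58e-06). Scarb1, the receptor for high-density lipoprotein, was 1.67-fold higher (adjusted p = 0.000908). Scarb2, a protein of the lysosome membrane, was 1.36-fold higher (adjusted p = 0.0261), and this call was lost without control replicate 2 (adjusted p = 0.0512), control replicate 4 (0.0687) or resolution replicate 4 (0.0712). Sterol efflux and trafficking had 3 of 16 higher and 3 lower. Ch25h, which makes the LXR ligand 25-hydroxycholesterol, was 6.64-fold lower (adjusted p = 0.000311), and Stard4, a cytosolic sterol carrier, was 1.81-fold lower (adjusted p = 0.00112). Abca2, a transporter related to Abca1, was at least 1.14-fold higher (adjusted p = 0.00265).

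GM-CSF is the growth factor whose signal turns on Pparg in developing alveolar macrophages. The 10 tested genes of this list were those of its receptor, of myeloid transcription factors and of the TGF-beta receptor Tgfbr2. Of them 1 rose and 3 fell in resolution versus control, with a median of -0.26. Klf4, a transcription factor of monocytes and macrophages, was 4.09-fold higher (adjusted p = 2.99e-06). Bhlhe41, a repressor known from alveolar macrophage self-renewal, was 2.69-fold lower (adjusted p = 5.82e-05), and Stat5a, a signal carrier of the receptor, was 1.62-fold lower (adjusted p = 0.00182). Csf2rb, the shared receptor chain, was 1.27-fold lower (adjusted p = 0.0438). Leaving out any array but resolution replicate 4 ended the Csf2rb call (adjusted p 0.0543 to 0.105).

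**Figure D3:**
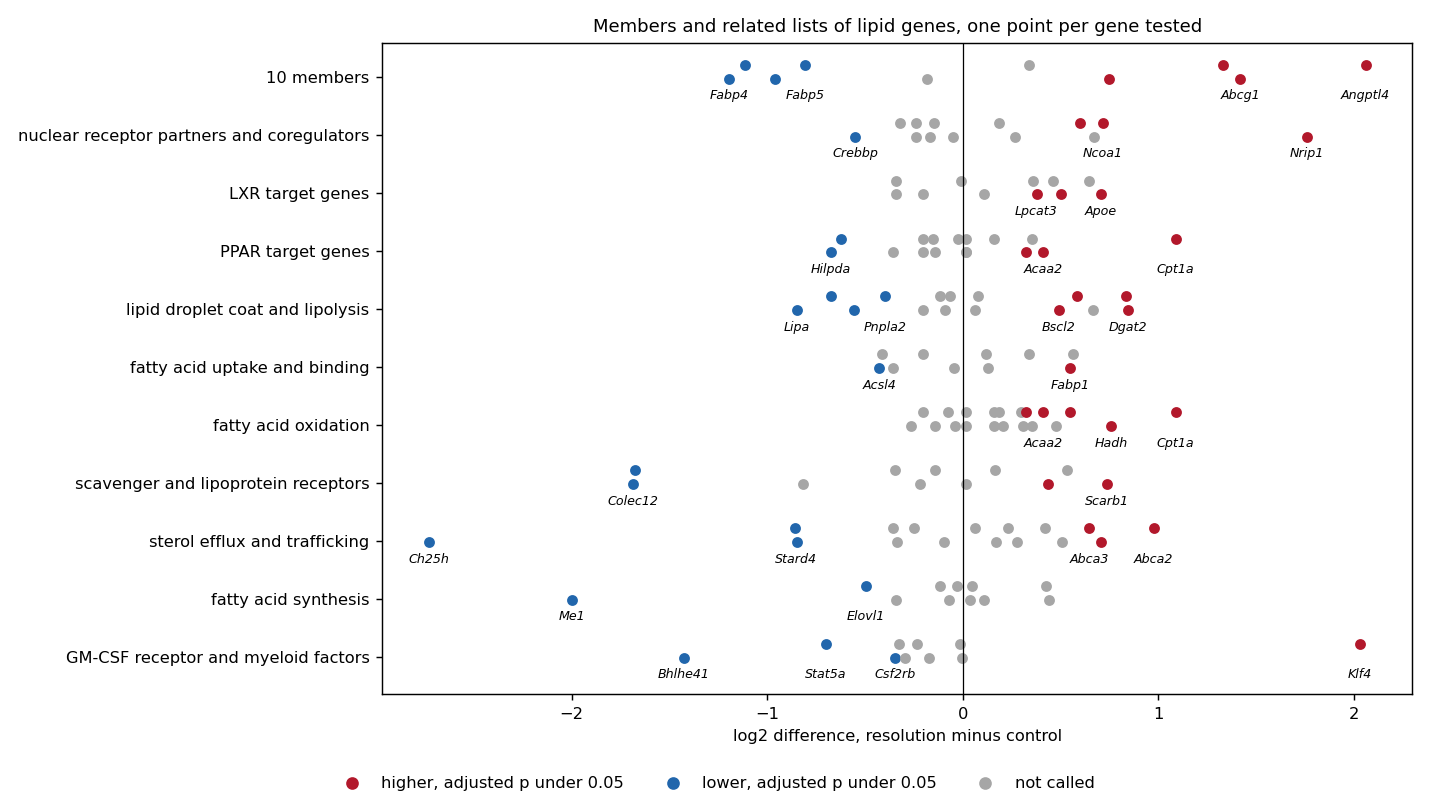
Log2 difference, resolution minus control, of the 10 lipid genes (top row) and of the tested genes of the related lists, 1 point per gene, in red where called higher, blue where called lower and grey where not called; a gene can stand in more than 1 list, and points are offset vertically for legibility. The top row has points far on both sides of 0, the fatty acid oxidation row has called points to the right of 0 only, and Ch25h (-2.73) lies farthest out.

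Few of the listed genes were called in acute versus control. Of the 115, Me1 was called there, at least 1.76-fold lower (adjusted p = 0.0368). That call was lost without control replicate 1, 2 or 4, without acute replicate 1, 2 or 3 and without resolution replicate 1, 2 or 3 (adjusted p 0.0531 to 0.199). Colec12 differed by -1.17 with an adjusted p of 0.0512, and Lipa by -0.43 with an adjusted p of 0.308.

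Lung epithelial markers differed between the groups. The mean level of 15 such markers was 6.53 ± 0.17 in resolution (SD, n = 4), 8.30 ± 0.26 in acute (n = 3) and 7.21 ± 0.18 in control arrays (n = 4). Their summed intensity ranged over 2158 to 3841 in resolution, 17734 to 37572 in acute and 4656 to 8956 in control arrays. The alveolar macrophage markers summed to 929657 to 997548 in resolution, 904142 to 928930 in acute and 948797 to 976145 in control arrays. Of 13 tested epithelial markers 5 were lower and 0 higher in resolution versus control, 9 lower in resolution versus acute and 4 higher in acute versus control, with Sftpc, Scgb3a2 and Bpifa1 the brightest. Sftpb, Krt18 and Muc5b were below background in every array. With the epithelial mean as a covariate, of whose variance 94.6% lay between the groups, Nr1h3 alone of the 10 genes was called in resolution versus control (-0.98, adjusted p = 0.031), and 9 had an unadjusted p under 0.05. The differences in that fit were -0.97 for Cd36 (adjusted p = 0.0506), -1.17 for Fabp4 (0.0513) and 0.68 for Pparg (0.166), near those without the covariate. Smaller in size than without it were those of Angptl4 (1.72, adjusted p = 0.0515), Abcg1 (0.91, 0.12), Cidec (0.99, 0.132) and Fabp5 (-0.63, 0.262). With the covariate limma called 0 members in resolution versus acute and 0 in acute versus control, where 1 and 2 members had an unadjusted p under 0.05. In resolution versus acute the differences shrank to 0.17 for Abcg1 (adjusted p = 0.962) and 0.33 for Cidec (0.933). They shrank to 0.53 for Angptl4 (0.917) and -0.18 for Fabp5 (0.958). Without the covariate these were 1.51, 1.21, 1.41 and -0.63. Pparg lay at 0.65 to 0.85, Nr1h3 at -1.14 to -0.74 and Fabp4 at -1.15 to -1.01. These ranges span the alternatives other than leaving out 1 array, this fit included. The part of epithelial RNA in the differences was not tested beyond this fit, in which covariate and group can hardly be told apart.

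Fabp4, Cidec, Angptl4 and Plin2 are also genes of fat cells. All 9 adipocyte markers on the array, among them Adipoq, Plin1 and Lep, were below background in every array, with summed intensities of 245 to 290 in resolution, 243 to 283 in acute and 203 to 253 in control arrays. Of 3 that were tested 1, Acvr1c, was called higher at these levels below background. It differed by 1.26 in resolution versus control (adjusted p = 0.00145) and by 1.09 in resolution versus acute (adjusted p = 0.00818). The part of fat cell RNA was not tested. Cd36 and Fabp4 are also made by endothelium, of whose 11 markers 9, including Pecam1, Kdr and Cldn5, were below background in every array. Vwf, the von Willebrand factor of endothelium, was above background in every group. It was 1.38-fold lower in resolution versus control (adjusted p = 0.0271), a call lost without control replicate 1, 3 or 4 or resolution replicate 2, 3 or 4 (adjusted p 0.0554 to 0.0763). In acute versus control Vwf differed by -0.67 (adjusted p = 0.0941, 0.0405 without control replicate 2 and up to 0.321 with another array left out). Cd36 differed there by -0.82 (adjusted p = 0.0165) and Fabp4 by -0.11 (adjusted p = 0.866). The part of endothelial RNA was not tested. The endothelial sums were 429 to 464 in resolution, 405 to 471 in acute and 443 to 701 in control arrays. Apoe and Abca1 are also expressed by interstitial macrophages of the lung. Of 9 tested markers of the interstitial cells 2 rose and 1 fell in resolution versus control, 1 fell in resolution versus acute and 1 rose in acute versus control. C1qa, a complement subunit, averaged 9.24 ± 0.57 in resolution (SD, n = 4), 9.61 ± 0.49 in acute (n = 3) and 7.73 ± 0.27 in control arrays (n = 4), with adjusted p = 0.00203 in resolution versus control and 0.0201 in acute versus control. The acute call was lost without control replicate 1 (adjusted p = 0.0794) or 2 (0.0561) and without acute replicate 2 (0.116) or 3 (0.0957). The part of such cells in the differences was not tested. Of the 12 markers on the array 5 were below background in every array; the mean levels were 6.69 in resolution, 6.81 in acute and 6.42 in control arrays, and the sums, which include Apoe, were 2925 to 5016 in resolution, 3252 to 5003 in acute and 2938 to 4381 in control arrays. Of blood cell markers tested in resolution versus control, 1 of 8 for monocytes rose and 1 fell, 1 of 6 for neutrophils rose and 2 fell, 1 of 4 for lymphocytes fell, and the 3 for eosinophils did not pass the test.

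**Figure D4:**
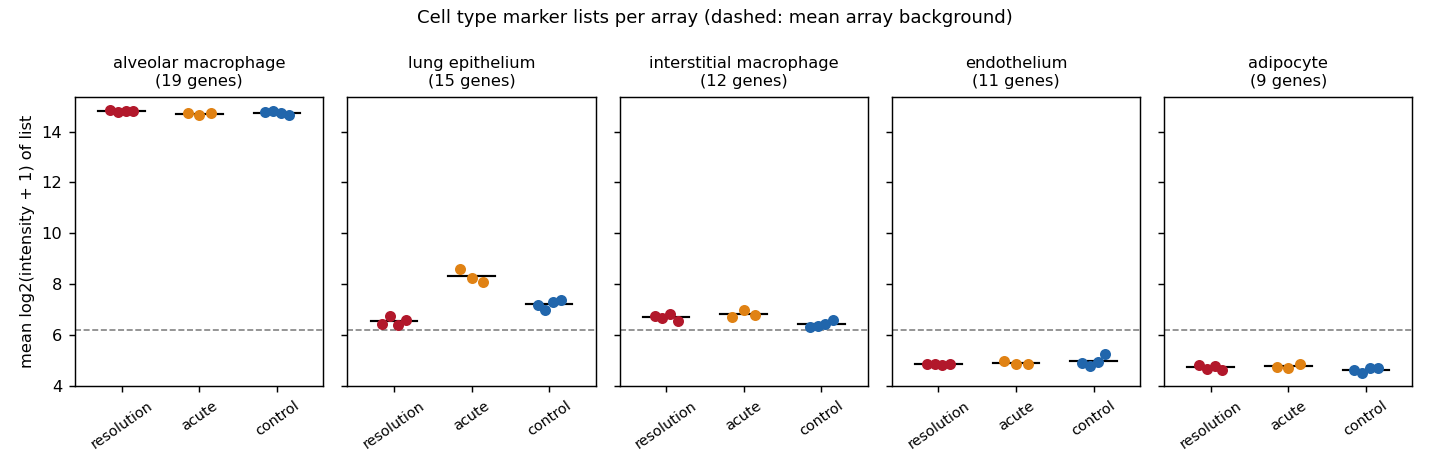
Mean log2(intensity + 1) of 5 cell type marker lists in each array, 1 point per array, with bars at group means and the mean array background as a dashed line, for resolution, acute and control. Alveolar macrophage markers lie at 14.65 to 14.86 in all groups, adipocyte and endothelial markers lie below the background line, and epithelial markers are highest in acute arrays (mean 8.30) and lowest in resolution arrays (6.53).

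Genes whose pattern over the 11 arrays was most like a member were found by the root mean square difference of centred log2 levels, a description in which all genes share the same arrays. The nearest to Pparg were Matn2 (0.098), Arhgap45 (0.10) and Tmem170b (0.11). Nr1h3 had Gch1 (0.11), Fdft1 (0.11) and Cacul1 (0.13) as its nearest. Abcg1 was most like Klf10 (0.14), Ypel3 (0.15) and Kcna3 (0.18), and Angptl4 most like Vgll4 (0.24), Socs2 (0.24) and Pygo2 (0.26). None of the 3 nearest genes of any of these 4 members was among the 3 nearest when group means were used in place of arrays, so the order of neighbours depends on that choice. Among the members themselves the nearest pairs were Nr1h3 and Fabp4 (0.15), Nr1h3 and Fabp5 (0.21), Fabp4 and Fabp5 (0.22), and Abcg1 and Cidec (0.23).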

How the data were processed

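RNA of alveolar macrophages from 11 mice was hybridised to 11 Affymetrix arrays. The deposited intensity values were made by the authors with Affymetrix Expression Console, per the submitters' processing notes. Its version, algorithm and the annotation's genome build were not given in the sources used here. Per the labels' protocols, Trizol extraction preceded biotin labelling with a 3' IVT Pico kit.

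Of 28846 probe sets 31 are controls, 19572 have 1 symbol, 0 several and 9243 none; all 19572 matched RefSeq genes and 0 symbols were updated. Of 19505 symbols 55 had several clusters, and the one with the highest mean stood for the gene. The values were taken as log2(value + 1) with no further scaling. A gene was tested where at least 3 of 11 arrays exceeded their own 40th percentile, which left 12143. limma 3.58.1 in R 4.3.3 (lmFit and eBayes, 8 residual and 4.48 prior degrees of freedom) fitted 1 mean per group over all arrays, two-sided, with Benjamini-Hochberg adjustment over all tested genes and a threshold of 0.05. Background was the 90th percentile of 23 antigenomic probe sets per array (6.12 to 6.24); folds against a group below it are bounds. Precision is limited by how many arrays a group has. The procedure was tested on simulated data.

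The 10 members and the 20 lists were chosen with earlier results of these data known. Text names all members and up to 4 genes per list with the largest called difference (or the 1 with the smallest p). It also names the 3 nearest genes of Pparg, Nr1h3 and the 2 members that moved most, and the brightest markers. Rxra, Nr1h2, Lpl, Srebf1, Apoe, Csf2rb, Siglecf and Marco are named whatever their values. The immediate early genes, Fcgr1, Ctsk, Slc39a2, C1qa, Vwf and the other background-level markers were named after their values were seen. Protein sequences were not used here. Alternatives changed scaling, the added constant, the filter, the groups fitted, a replicate block, the variance prior, array weights, the arrays left out, cluster averaging and a covariate.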

Additional observations from a re-analysis of the deposited data

Results flagged for a closer look

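Of 20 sets of 4 arrays (10 genes in resolution and in control), 2 had an array far from the other 3 by Dixon's ratio, the gap to the nearest array over the whole range; both passed its 95% critical value. The ratio flags about 1 in 20 sets by chance, and the 10 sets of 3 acute arrays were too small to check. Abcg1 stood at 13.96 in resolution replicate 2 while the other resolution arrays lay between 14.26 and 14.29 (ratio 0.892). Fabp5 stood at 14.73 in resolution replicate 4 while the others lay between 15.001 and 15.05 (ratio 0.848). Both genes kept their calls in resolution versus control and in resolution versus acute when the array in question was left out.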

How the results depend on the processing

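Of 750 values of the 10 members (30 results under 25 alternatives), 710 kept their direction and side of the threshold, 21 lost a call, 1 gained one and 18 changed sign, none of the last called. Sign changes were those of Abca1 in resolution versus control (-0.22 without control replicates 3 and 4, -1.26 with the epithelial covariate), in resolution versus acute (0.12 with the replicate block, 0.087 with array weights, -0.17 to 0.22 with 1 array left out) and in acute versus control (-0.19 without control replicates 3 and 4). With the covariate Abca1 moved without a sign change to -4.18 in resolution versus acute and 2.92 in acute versus control (adjusted p = 0.333 and 0.591). Plin2 in resolution versus acute was 0.0012 after quantile normalization and -0.070 to 0.013 with 1 array left out. In acute versus control, without control replicates 3 and 4 Nr1h3 was 0.030 and Cidec -0.12 (-0.079 to 0.019 and -0.044 to 0.25 with 1 array left out), and with the covariate Abcg1 was 0.73 and Pparg 0.026 (Abcg1 0.060 without acute replicate 1). Counts of genes called moved to 1494 (690 higher, 804 lower, 1349 shared with the 2259) without control replicates 3 and 4 and 373 with the covariate in resolution versus control, to 0 with the covariate in resolution versus acute (1089 under an unadjusted p of 0.05), and in acute versus control to 54 with array weights, 51 with an intensity trend, 16 with the 2 groups alone and 0 with the covariate (871 unadjusted). With 1 array left out they ran from 1829 to 2242, 1069 to 1837 and 6 to 29 in these comparisons. Members called with the covariate were 1 in resolution versus control (9 under an unadjusted p of 0.05, with 0.68 for Pparg, 1.72 for Angptl4, -1.17 for Fabp4 and -0.97 for Cd36), 0 in resolution versus acute and 0 in acute versus control, and in acute versus control 0 with 2 groups or the block and 0 to 1 with 1 array left out. Listed genes called with the covariate were likewise 5, 0 and 0 (9 and 10 unadjusted in the last comparisons), with 17 to 32 in resolution versus acute with 1 array left out, and in acute versus control 0 after median scaling, quantile normalization or with 2 groups (11, 19 and 10 unadjusted), 2 with value + 16, the 60th percentile filter, the block, array weights or without control replicates 3 and 4, 3 with the trend, and 0 to 1 with 1 array left out. Scaling changed the split of calls, 943 higher and 812 lower in resolution versus acute, to 673 and 989 (median) or 685 and 1151 (quantile). The median shift over all genes was at most 0.079 in size, and single genes could shift by more. In acute versus control median scaling gave 25 higher and 3 lower and quantile normalization 29 and 3, against 23 and 6. Pairs with the same replicate number did not stand out: 10 such pairs had correlations of deviations of -0.124 to 0.0872 and 30 other pairs -0.14 to 0.2. With 3 or 4 arrays per group such values cannot show whether samples of the same number share a day or batch. The block gave 2120, 1455 and 25 genes called. Causes were not tested. Abca1 varied by an SD of 0.70 in control arrays, which limits what its interval can show.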

Other observations

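Control replicate 4 was the control array farthest from the resolution mean in 8 of the 10 lipid genes, all but Pparg and Cd36. It was the lowest control array for Abca1 (11.23), Abcg1 (12.39), Cidec (9.79) and Angptl4 (7.01), and the highest for Nr1h3 (13.66), Fabp4 (16.90), Fabp5 (16.13) and Plin2 (16.98). The same array was high in single markers of other cells, named after their values were seen. S100a8, a neutrophil and monocyte gene, stood at 12.16 there and at 8.55 to 9.81 in the other control arrays. Retnlg of neutrophils stood at 7.11 (others 4.01 to 4.43), Cdh5 of endothelium at 7.42 (others 4.18 to 4.39) and Prg2 of eosinophils at 6.95 (others 4.15 to 4.69). Other markers of the same cells, also named after their values were seen, were lowest of the control arrays there. These were Cxcr2 of neutrophils (7.97, others 7.99 to 8.25), Tie1 of endothelium (4.88, others 5.07 to 5.64) and Epx of eosinophils (3.91, others 4.24 to 4.39). Tie1 and Epx were below background in every array. The mean of the neutrophil list reached 7.67 and that of the eosinophil list 7.22 in this array; their part in the lipid genes' values was not tested. Control replicates 1 and 2 were farthest for 1 gene each and control replicate 3 for 0. Without control replicates 3 and 4 together all 8 members called in resolution versus control were still called.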
